A study of Mus musculus with 16 samples.

Results

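The retinoid receptor genes and the genes of retinoic acid metabolism were examined in polysomic RNA of cortical astrocytes and in whole cortex of naïve and acutely stressed mice. The set held 9 of the 24060 genes measured, namely the retinoic acid receptors Rara, Rarb and Rarg, the retinoid X receptors Rxra, Rxrb and Rxrg, and the enzymes Rdh10, Aldh1a1 and Cyp26b1. They were taken by gene symbol, and all were present in each of the 16 libraries. The set was drawn up because Rara was lower after stress in astrocyte RNA and higher after stress in whole tissue, so that every value of Rara and every stress difference of the 9 genes is given as a description. Counts of calls after stress are printed beside those of all genes and are no test of the set.

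All 16 libraries came from the somatosensory cortex of Aldh1l1CreERT2-RiboTag mice on the C57BL/6J background, aged 3 months. In these mice tamoxifen, given at 2 months of age to all groups alike, turns on a Cre recombinase driven by the Aldh1l1 promoter. Astrocytes then carry the ribosomal protein Rpl22 with an HA tag. An HA immunoprecipitate (IP) then holds RNA bound to tagged ribosomes, and the lysate before the pull-down (INPUT) holds RNA of all cell types. Stressed mice swam for 20 min and spent 90 min in the home cage before tissue was taken, while naïve mice did not swim, and each of the 4 groups (naïve IP, stress IP, naïve INPUT, stress INPUT) had 4 libraries. The study's methods give 4 males among 8 mice in all, and the labels do not state which IP and INPUT libraries came from 1 animal, so p-values measure the spread between these libraries.

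Vitamin A is oxidised in 2 steps to retinoic acid. Retinol dehydrogenases such as Rdh10 make retinal, retinaldehyde dehydrogenases such as Aldh1a1 turn retinal into retinoic acid, and enzymes of the Cyp26 family, Cyp26b1 among them, break retinoic acid down. Retinoic acid binds the receptors of the RAR family, which sit on DNA as dimers with a receptor of the RXR family and repress or activate nearby genes through corepressors and coactivators. RXR proteins also pair with thyroid hormone, PPAR and liver X receptors, and in the brain retinoic acid is known for its part in regional patterning and, in the adult, in homeostatic adjustment of synapses.

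The libraries held between 16392876 and 25814364 reads assigned to genes, and 3 reads corresponded to at most 0.183 CPM (reads of a gene as a rate of the library total). Reads per library ran from 13 to 41 for Rxrg and from 7 to 91 for Cyp26b1, from 103 upwards for the other RAR and RXR genes and Rdh10, and from 663 to 8589 for Aldh1a1. All 7 astrocyte markers were higher in IP, with a summed level of 79926 to 91763 CPM in IP and 4483 to 5403 CPM in INPUT, and all 6 neuronal markers were lower in IP (334 to 551 CPM against 9619 to 11272 CPM). In naïve mice the lists of oligodendrocytes, mural cells, leptomeningeal fibroblasts, choroid plexus and striatal projection neurons each had 1 gene called higher in IP. Genes called lower numbered 4, 3, 3, 0 and 2 in these lists. All 5 microglial and all 5 endothelial markers were lower. Some of the lower genes averaged under 1 CPM in IP. Aldh1l1, whose promoter drives the Cre, ran from 838 to 1162 CPM in IP and from 74.7 to 92.0 CPM in INPUT. Slc1a2, the main astrocyte glutamate transporter, ran from 64625 to 75534 CPM against 3373 to 4173 CPM. Rpl22, the tagged gene, ran from 24.9 to 31.3 CPM against 43.0 to 51.4 CPM. The choroid plexus marker Ttr, a retinol transport partner, reached 114 CPM in naïve IP replicate 2 and 13.4 CPM in naïve INPUT replicate 3, and was at most 6.65 CPM in the other 14 libraries. Fewer cells of a type and less RNA per cell cannot be told apart in such samples.

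The promoters of the RAR genes are shown first because Rarb is the textbook case of a gene that retinoic acid receptors bind at its own start, through a direct repeat with 5 bases between its arms (DR5). Promoter windows of 300 bases, 250 before and 50 after a transcription start, were taken from RefSeq (GRCm38.p6), and 16 windows were listed for 8 of the 9 genes, Rdh10 being the exception. The DR5 motif was written as GNTCANNNNNNGNTCA and searched on both strands. The first base of each arm was left free, so the run of N holds the 5 bases between the arms and the first base of the second arm. A match therefore begins at the second base of the first arm. The 250 bases before the start of Rarb at chr14:16575477-16575726 (minus strand) and before starts of Rara at chr11:98937446-98937695 and chr11:98964622-98964871 (plus strand) and of Rarg at chr15:102257523-102257772 (minus strand) read as follows, 5′ to 3′, with a DR5 match in capitals.
Rarb: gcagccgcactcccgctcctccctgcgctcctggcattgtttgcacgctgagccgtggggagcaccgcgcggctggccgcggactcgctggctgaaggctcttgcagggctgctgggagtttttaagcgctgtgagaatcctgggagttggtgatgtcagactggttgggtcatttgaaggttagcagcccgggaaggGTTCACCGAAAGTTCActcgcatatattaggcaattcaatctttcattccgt
Rara, first start: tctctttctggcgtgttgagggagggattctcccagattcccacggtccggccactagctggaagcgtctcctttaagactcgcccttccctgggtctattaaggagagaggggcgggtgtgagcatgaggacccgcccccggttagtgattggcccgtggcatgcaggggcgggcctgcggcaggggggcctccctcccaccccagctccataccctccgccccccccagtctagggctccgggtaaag
Rara, downstream start: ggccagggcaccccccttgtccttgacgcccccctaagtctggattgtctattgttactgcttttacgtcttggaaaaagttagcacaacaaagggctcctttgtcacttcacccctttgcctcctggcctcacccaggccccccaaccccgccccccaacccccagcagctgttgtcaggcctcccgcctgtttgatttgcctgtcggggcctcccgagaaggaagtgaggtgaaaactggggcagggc
Rarg: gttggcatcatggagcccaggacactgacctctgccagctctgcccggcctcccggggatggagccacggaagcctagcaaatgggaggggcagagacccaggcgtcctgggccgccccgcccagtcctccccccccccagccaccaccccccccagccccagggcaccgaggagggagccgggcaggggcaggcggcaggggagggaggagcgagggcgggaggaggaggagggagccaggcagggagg

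The Rarb window held 1 match, GTTCACCGAAAGTTCA, beginning 52 bases before the start, and the other 15 windows of the set held none. Of all 32851 promoter windows of this length, 283 (0.861%) held such a match. The palindromic glucocorticoid receptor motif, written as GNACANNNTGTNC, was found in none of the 16 windows and in 0.475% of all windows. Which of the listed starts of Rara, Rarg or the RXR genes was in use could not be read from these values, since each gene has 1 count per library.

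Levels were compared between genes per kilobase of exon. In naïve IP Aldh1a1 was far above the others, with 62.5 ± 6.58 CPM per kb (SD, n = 4). Rxra (7.48 ± 1.33 CPM per kb) and Rxrb (5.71 ± 0.516 CPM per kb) followed, then Rara (4.46 ± 0.375 CPM per kb) and Rdh10 (4.26 ± 0.241 CPM per kb), which differed by less than their SD. Rarg lay at 2.11 ± 0.189 CPM per kb and Rarb at 0.989 ± 0.04999 CPM per kb. Rxrg (0.382 ± 0.0888 CPM per kb) and Cyp26b1 (0.262 ± 0.223 CPM per kb) came last and were not separated by their spread. Rara was thus the most abundant of the RAR genes and Rxrg the least abundant of the RXR genes in astrocyte RNA. In naïve INPUT the leading gene was Rxrb (12.0 ± 0.731 CPM per kb), ahead of Aldh1a1 (8.98 ± 0.674 CPM per kb) and Rxra (8.02 ± 0.452 CPM per kb), with Rara at 4.40 ± 0.919 CPM per kb. There Cyp26b1 (0.712 ± 0.0904 CPM per kb) and Rxrg (0.632 ± 0.134 CPM per kb) came last, within their SD of each other, and in stress INPUT their order was the other way round (0.597 and 0.663 CPM per kb).

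**Figure D1:**
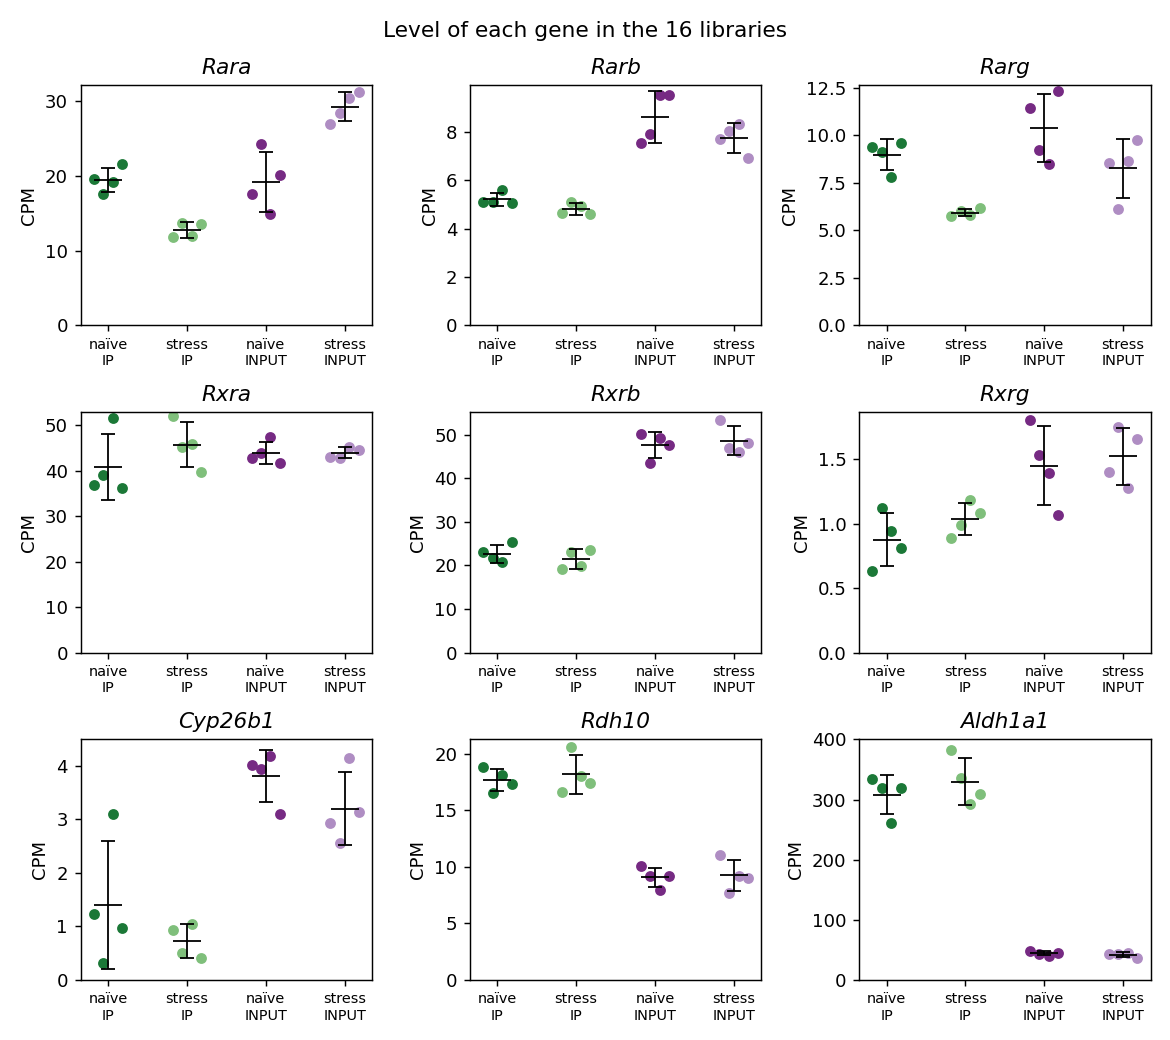
Level of each of the 9 genes, in CPM on a linear axis from 0, in the 4 libraries of each group (points), with the mean and SD (bars). Rara is the gene whose stress IP libraries (11.8 to 13.8 CPM) lie below and whose stress INPUT libraries (26.9 to 31.2 CPM) lie above the naïve libraries.

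IP was compared with INPUT in mice of the same condition. This gives the level of a gene in IP relative to whole tissue, and not whether astrocyte ribosomes carry its RNA. Aldh1a1, which makes retinoic acid, and Rdh10, which makes retinal, were higher in IP. The RXR gene Rxrb and the degrading enzyme Cyp26b1 were lower. Rarb and Rxrg in both conditions and Rarg in stressed mice were also called lower in CPM, with log2 differences of -0.71 to -0.45. The direction of these 3 genes depended on the scale used. Rxra in both conditions and Rarg in naïve mice did not pass the threshold. Of the 8 genes other than Rara, 2 were higher and 4 were lower in naïve mice at an adjusted p under 0.05 (limma with trend on log2(CPM + 0.1), Benjamini-Hochberg over 13339 genes). In stressed mice 2 were higher and 5 were lower. Of the lower genes, Rxrg in naïve and Cyp26b1 in stressed mice passed the filter of a mean above 1 CPM only through INPUT, so that these calls are no support and their differences are given as descriptions. The naïve IP mean of Cyp26b1 was above 1 CPM only through replicate 11, so its naïve difference is a description too. The background was large: 23.7% of all genes were called higher and 64.0% lower in naïve mice, and 23.6% and 62.5% in stressed mice, with a median log2 difference over all genes of -0.64 and -0.63. With library scales set by median ratios the split of 3158 genes higher and 8540 lower in naïve mice became 5623 and 5587, so a level equal to INPUT in CPM stood above the middle gene of the IP libraries.

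Aldh1a1 (chr19:20492715-20643465, mm10, plus strand) makes retinoic acid from retinal. Its level was 334, 319, 261 and 320 CPM in naïve IP and 48.2, 43.6, 40.2 and 45.2 CPM in naïve INPUT, and 383, 336, 292 and 309 CPM in stress IP against 42.5, 43.4, 44.9 and 36.6 CPM in stress INPUT. Every IP library lay above every INPUT library. The log2 difference was 2.79 ± 0.08 (SE, adjusted p = 7.48e-13, limma) in naïve and 2.97 ± 0.09 (adjusted p = 9.00e-12) in stressed mice, a 6.93-fold and a 7.85-fold difference. Its close paralog Aldh1a7, with which 1.38% of the 69-base stretches of its transcripts were shared, was at 3.70 CPM or less in every library.

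Rdh10 (chr1:16105774-16133734, plus strand) oxidises retinol to retinal, the first step of the pathway. It stood at 18.8, 16.5, 18.1 and 17.3 CPM in naïve IP and at 10.1, 9.18, 7.98 and 9.15 CPM in naïve INPUT. In stressed mice the IP libraries held 16.6, 20.7, 18.1 and 17.4 CPM and the INPUT libraries 11.0, 7.73, 9.22 and 8.99 CPM. IP and INPUT did not overlap in either condition. The log2 difference was 0.96 ± 0.10 (adjusted p = 4.86e-07, limma) in naïve and 0.98 ± 0.12 (adjusted p = 7.56e-06) in stressed mice.

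Cyp26b1 (chr6:84571414-84593908, minus strand), which hydroxylates retinoic acid for removal, had low levels in IP. It was at 1.22, 0.314, 3.09 and 0.968 CPM in naïve IP and at 4.01, 3.94, 4.19 and 3.10 CPM in naïve INPUT. In stressed mice it was at 0.937, 0.493, 1.05 and 0.402 CPM in IP and at 2.93, 2.56, 4.15 and 3.14 CPM in INPUT. IP lay below INPUT in both conditions, with naïve IP replicate 11 reaching up to the lowest INPUT library. In stressed mice the IP mean was under 1 CPM, and in naïve mice it was above 1 CPM (1.40 CPM) only through replicate 11. Both differences are therefore given as descriptions. The log2 difference was -1.73 ± 0.45 in naïve and -2.07 ± 0.30 in stressed mice. In naïve mice it ran from -2.22 without IP replicate 11 to -1.23 without IP replicate 8, and with quantile normalization it was -0.59 and did not pass the threshold.

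The naïve IP library with the most Cyp26b1, replicate 11, was also the one with the most RNA of the leptomeninges, the fibroblast layers over the cortex. The summed level of 5 leptomeningeal fibroblast markers was 50.4 to 99.3 CPM in naïve IP, highest in replicate 11, and 48.8 to 70.6 CPM in stress IP, against 38.9 to 55.6 CPM in naïve INPUT and 52.8 to 67.9 CPM in stress INPUT. Col1a2 made up most of the IP sum, at 34.3 to 64.0 CPM in naïve IP against 14.4 to 21.4 CPM in naïve INPUT (log2 difference 1.25 ± 0.17). In naïve mice Col1a1 (-0.58 ± 0.22), Dcn (-1.29 ± 0.27) and Lum (-1.62 ± 0.34) were lower in IP. Slc6a13 (0.39 ± 0.26) did not pass the threshold. None of the 5 markers was at 0 in all libraries of a group, and Lum was under 1 CPM in every IP library. Slc6a13, a transporter of that list, was at 10.7, 6.81, 16.6 and 7.17 CPM in naïve IP replicates 2, 8, 11 and 13, and at 11.7, 4.29, 13.6 and 6.91 CPM in stress IP replicates 4, 5, 6 and 15. Slc6a13, picked after its values had been seen, had the same 2 libraries on top as Cyp26b1 in both IP groups. The list as a whole did not in stress IP, where its sum was 70.6, 48.8, 58.4 and 64.9 CPM in replicates 4, 5, 6 and 15 while Cyp26b1 was lowest in replicate 15.

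Aldh1a2, the retinaldehyde dehydrogenase of the meninges, and the binding protein Crabp2 and retinol uptake protein Stra6 were looked at after their values had been seen. Aldh1a2 was at 8.37, 6.85, 18.8 and 5.54 CPM in naïve IP and at 9.68, 5.13, 10.8 and 6.83 CPM in stress IP. Crabp2 was at 2.06, 1.21, 3.99 and 1.08 CPM in naïve IP and at 2.36, 1.33, 3.47 and 1.08 CPM in stress IP. Stra6 was highest in the same libraries, with 2.94 CPM in naïve IP replicate 11 and 2.78 CPM in stress IP replicate 6. None of these 3 genes differed between IP and INPUT past the threshold, with log2 differences of 0.41 ± 0.31, 0.12 ± 0.40 and 0.13 ± 0.29 in naïve mice. The part of meningeal RNA in the values of Cyp26b1 and of these 3 genes was not tested.

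**Figure D2:**
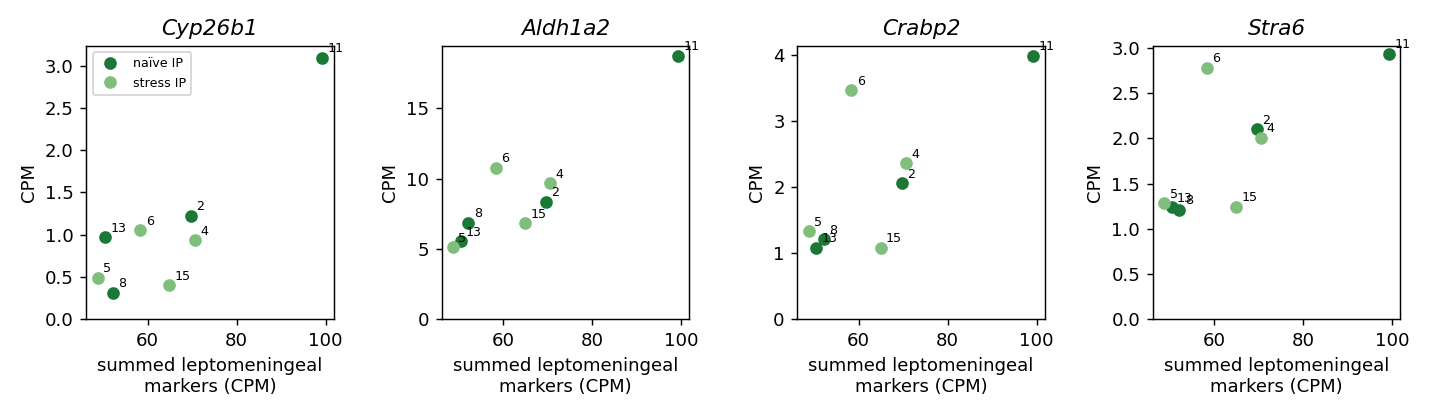
Level of Cyp26b1, Aldh1a2, Crabp2 and Stra6 (vertical axes, CPM) in the 8 IP libraries, against the summed level of 5 leptomeningeal fibroblast markers (horizontal axes, CPM). Numbers beside the points are replicate numbers, and replicate 11 of naïve IP is highest on both axes in every panel (99.3 CPM of markers).

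Rxrb (chr17:34031812-34038399, plus strand), a partner of the RAR proteins, was lower in IP. It was at 23.1, 21.6, 20.7 and 25.4 CPM in naïve IP against 50.04, 43.5, 49.2 and 47.7 CPM in naïve INPUT. In stressed mice it was at 19.1, 23.1, 19.9 and 23.5 CPM against 53.4, 46.9, 46.1 and 48.0 CPM. The groups lay far apart, with log2 differences of -1.07 ± 0.08 (adjusted p = 1.84e-08, limma) and -1.18 ± 0.09 (adjusted p = 5.40e-08). This was also below the median of all genes, by 0.43 and 0.55.

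Rxra (chr2:27676440-27762957, plus strand), a second partner of the RAR proteins, stood at 36.8, 38.9, 51.6 and 36.1 CPM in naïve IP and at 42.8, 43.7, 47.3 and 41.5 CPM in naïve INPUT. In stressed mice the values were 51.9, 45.1, 45.8 and 39.8 CPM in IP and 43.0, 42.8, 45.2 and 44.5 CPM in INPUT. IP and INPUT overlapped in both conditions, and the log2 differences of -0.12 (95% interval -0.34 to 0.11) and 0.05 (-0.13 to 0.23) did not pass the threshold in CPM, while both were above the median of all genes, by 0.52 and 0.68, and were called higher after either rescaling. Without naïve IP replicate 11 Rxra was called lower in naïve mice (-0.23). Among the RXR genes Rxra was therefore at INPUT level in CPM where Rxrb was below it.

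Rxrg (chr1:167598384-167639623, plus strand) had few reads. It was at 0.636, 1.12, 0.940 and 0.814 CPM in naïve IP and at 1.81, 1.53, 1.40 and 1.07 CPM in naïve INPUT, and at 0.892, 0.986, 1.19 and 1.08 CPM in stress IP against 1.40, 1.75, 1.28 and 1.66 CPM in stress INPUT. The log2 differences of -0.67 ± 0.25 in naïve mice, where it passed the filter only through INPUT, and -0.51 ± 0.22 (adjusted p = 0.0467, limma) in stressed mice were narrowly past the threshold, lost the call in 4 and in 6 of the 8 fits that left out 1 library, and with quantile normalization became 0.70 and 0.90. In naïve mice these were the fits without IP replicate 2 or 13 or INPUT replicate 3 or 7 (-0.54 to -0.64), and in stressed mice those without IP replicate 4, 5 or 15 or INPUT replicate 1, 9 or 12 (-0.44 to -0.54). At this depth the direction of Rxrg was not settled.

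Rarb (chr14:16430839-16819156, minus strand), a receptor that is itself a retinoic acid target, was at 5.09, 5.11, 5.60 and 5.04 CPM in naïve IP and at 7.51, 7.89, 9.53 and 9.51 CPM in naïve INPUT. In stressed mice it was at 4.64, 5.08, 4.93 and 4.58 CPM against 7.69, 8.03, 8.31 and 6.90 CPM. IP lay below INPUT without overlap, by -0.71 ± 0.12 (adjusted p = 8.67e-05, limma) and -0.67 ± 0.12 (adjusted p = 0.000194) on the log2 scale, which was 0.07 and 0.04 below the median of all genes, did not pass after median ratio rescaling (-0.08 and -0.05) and turned to 0.08 and 0.15 with quantile normalization. The end of Rarb overlaps exons of Top2b, a gene on the other strand at 199 to 326 CPM, and 32.6% of the 69-base stretches of Rarb transcripts were shared, on either strand, with Top2b or with the antisense gene Gm48162. Whether reads were counted by strand is not given in the sources used here, so the level of Rarb is uncertain.

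Rarg (chr15:102234938-102257517, minus strand), the receptor best known from skin and cartilage, was at 9.40, 9.14, 7.79 and 9.57 CPM in naïve IP and at 11.4, 9.24, 8.48 and 12.3 CPM in naïve INPUT. The log2 difference of -0.19 (95% interval -0.48 to 0.09) did not pass the threshold. In stressed mice it was at 5.75, 6.02, 5.80 and 6.15 CPM in IP and at 8.54, 6.11, 8.63 and 9.77 CPM in INPUT, a log2 difference of -0.45 ± 0.15 (adjusted p = 0.0123, limma) in CPM that was 0.18 above the median of all genes and became 0.17 after median ratio rescaling and 0.33 after quantile normalization. Stress IP and stress INPUT overlapped by 1 library each. The direction of Rarg against INPUT thus rested on the scale used.

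Rara (chr11:98927818-98974942, plus strand), the RAR gene with the highest level here, is given without a test. It was at 19.6, 17.6, 19.2 and 21.5 CPM in naïve IP and at 17.6, 24.3, 14.9 and 20.1 CPM in naïve INPUT. It was at 11.8, 13.8, 11.9 and 13.6 CPM in stress IP and at 26.9, 28.4, 30.5 and 31.2 CPM in stress INPUT. IP and INPUT overlapped in naïve mice, with a log2 difference of 0.04 ± 0.13 (SE), and were far apart in stressed mice, with a log2 difference of -1.19 ± 0.09. These sizes depended on the scale. In naïve mice the difference became 0.68 after median ratio rescaling and 0.67 with quantile normalization, and in stressed mice -0.57 and -0.55.

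**Figure D3:**
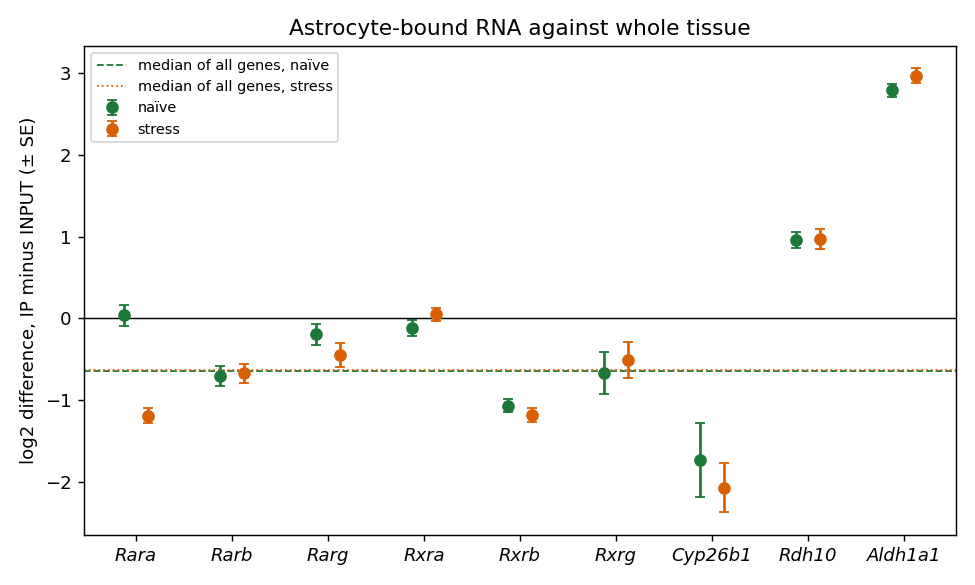
Log2 difference between IP and INPUT (vertical axis, on log2(CPM + 0.1), ± SE from limma, 4 against 4 libraries) for the 9 genes in naïve and stressed mice. The dashed and dotted lines mark the median of all genes (-0.64 and -0.63), and Aldh1a1 (2.79 and 2.97) and Rdh10 (0.96 and 0.98) lie above 0 in both conditions.

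The rest of the pathway was read from 43 companion genes, in 6 lists that share some genes with each other. Of these, 33 passed the filter of a mean above 1 CPM in naïve mice, 12 were higher and 15 lower in IP, and 6 did not pass the threshold. In stressed mice 12 were higher and 14 lower. Of the lower genes, 3 in naïve and 2 in stressed mice had passed the filter only through INPUT. Among all genes tested, 23.7% were higher and 64.0% lower in naïve mice, and 23.6% and 62.5% in stressed mice. The counts of the single lists below stand beside the same shares. The direction in CPM was kept under both rescalings for 24 of the 33 genes in naïve and for 23 in stressed mice. The 10 companion genes that passed the filter in no comparison, among them the other Cyp26 genes Cyp26a1 and Cyp26c1 and the carrier Crabp1, were at 0.913 CPM or less in every library.

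Enzymes that interconvert retinol and retinal or cleave carotenoids were mostly higher in IP. Of 8 tested genes of that list 5 were higher and 2 lower in naïve mice, and the median log2 difference was 1.84. Rdh5, a retinol dehydrogenase best known from the retinal pigment epithelium, had a log2 difference of 2.69 ± 0.19 (adjusted p = 9.61e-09, limma). Dhrs4, a retinal reductase, had 2.55 ± 0.10 (adjusted p = 2.28e-11), and Bco2, a carotene oxygenase, had 2.45 ± 0.12 (adjusted p = 1.37e-10). Lower in CPM was Rdh14 (-0.66 ± 0.09, adjusted p = 1.66e-05), which lay within 0.06 of the median of all genes in both conditions and had a log2 difference of 0.05 in stressed mice after median ratio rescaling. The list was thus led by both oxidising and reducing enzymes.

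Of the uptake and binding proteins, 2 of 5 tested genes were higher and 1 was lower, with a median log2 difference of 0.13. Fabp5, which can carry retinoic acid, was 1.73 ± 0.06 higher on the log2 scale (adjusted p = 6.00e-12, limma). Rbp4, the carrier of retinol in blood, was at 0.672 CPM or less in IP and at 6.38 to 8.89 CPM in naïve INPUT, a log2 difference of -3.49 ± 0.19. Of the other enzymes of synthesis and breakdown, Aldh1a3, a further retinaldehyde dehydrogenase, was at 0.441 CPM or less in IP and at 1.60 to 2.77 CPM in naïve INPUT (-3.29 ± 0.40). Both Rbp4 and Aldh1a3 passed the filter only through INPUT, so their differences are descriptions.

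Among the other receptors that pair with RXR, 2 of 7 tested genes were higher and 4 lower in naïve mice. These counts were near the shares of all genes (23.7% and 64.0%), so nothing is read from them. Ppara, the receptor that drives fatty acid oxidation, was 3.35 ± 0.09 higher on the log2 scale (adjusted p = 5.49e-13, limma), with 67.9 to 88.8 CPM in naïve IP and 6.83 to 7.93 CPM in naïve INPUT. Nr1h3, the liver X receptor alpha, was 1.20 ± 0.20 higher (adjusted p = 6.93e-05). Pparg (-2.27 ± 0.20, adjusted p = 1.04e-07) and the thyroid hormone receptor gene Thra (-1.90 ± 0.08, adjusted p = 5.19e-11) were lower, and Nr1h2, the liver X receptor beta, was lower in CPM (-0.58 ± 0.07, adjusted p = 2.36e-06) but in naïve mice at 0.06 after median ratio rescaling and at 0.00 with quantile normalization, against -0.11 and -0.16 in stressed mice.

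Of the 10 receptor coregulators 3 were higher and 6 lower in naïve mice, also near the shares of all genes (23.7% and 64.0%). The coactivators Ncoa1 (0.69 ± 0.05, adjusted p = 1.28e-08, limma) and Ep300 (0.39 ± 0.08, adjusted p = 0.000601) were higher. Ncoa3 (-1.36 ± 0.07, adjusted p = 7.08e-10) and Nrip1 (-0.84 ± 0.06, adjusted p = 2.92e-08) were lower, and Med1 was lower in CPM (-0.40 ± 0.06, adjusted p = 1.23e-05) but at 0.24 after median ratio rescaling. Of 8 tested genes on the list of retinoic acid-responsive genes, which includes Rarb and Cyp26b1, 2 were higher and 4 lower, beside the same shares. Among its higher genes was Dhrs3, a retinal reductase (2.28 ± 0.06, adjusted p = 5.04e-13), and among its lower ones was the transglutaminase gene Tgm2 (-1.18 ± 0.13, adjusted p = 1.31e-06).

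**Figure D4:**
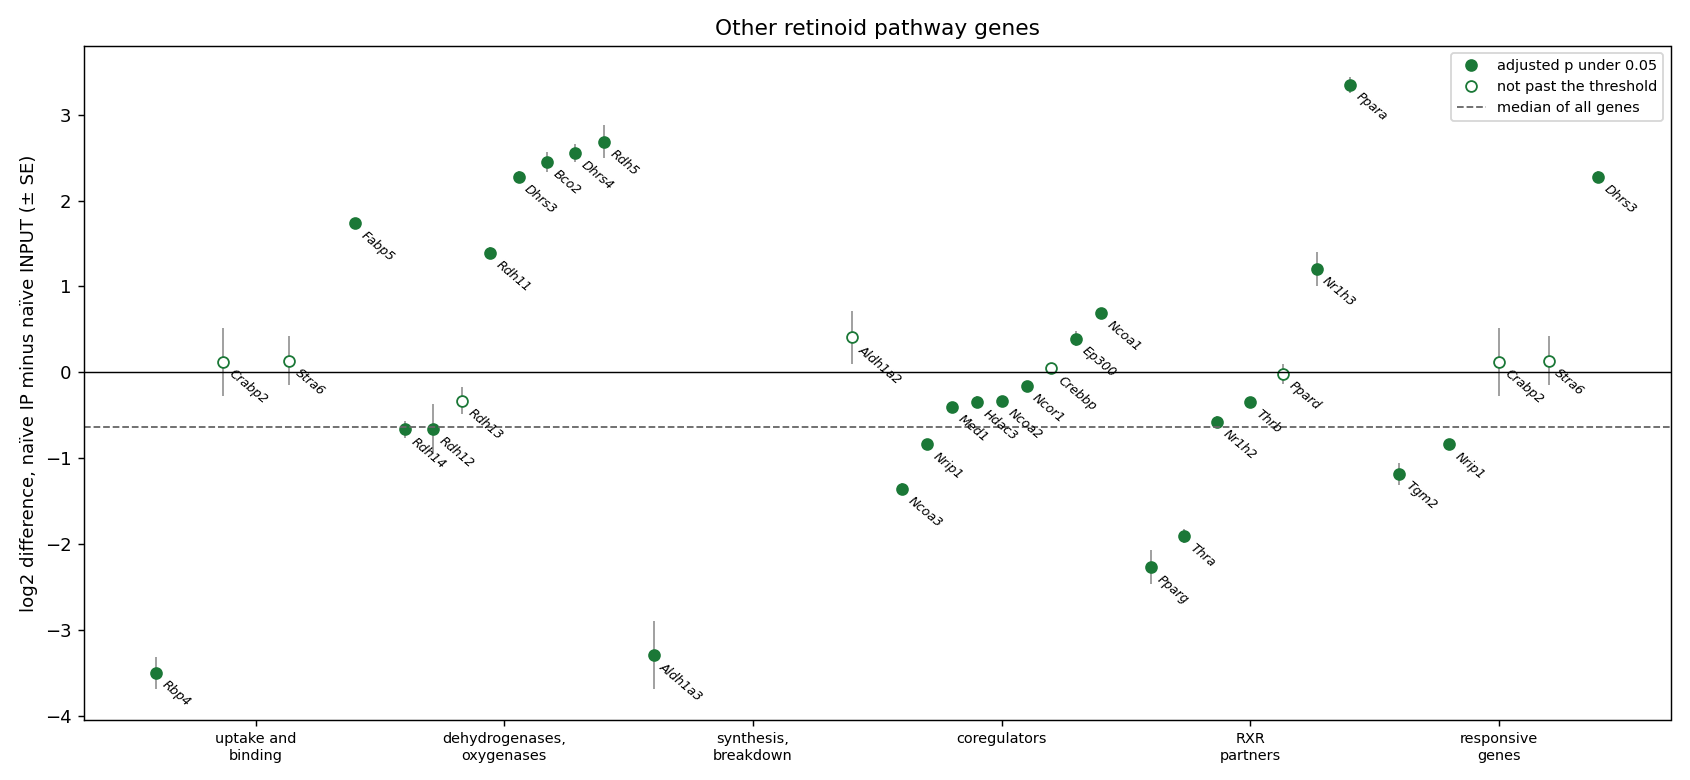
Log2 difference between naïve IP and naïve INPUT (vertical axis, ± SE from limma, 4 against 4 libraries) for the companion genes tested and reported here, by list. Filled points passed an adjusted p under 0.05, the dashed line marks the median of all genes (-0.64), and Ppara (3.35) is the highest gene. Rbp4, Aldh1a3 and Rdh12 passed the filter only through INPUT.

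How these genes differed after acute stress was read separately in IP and in INPUT, and the set was chosen on these differences. Within IP, 8 of the 9 genes passed the filter, with Rxrg under it, and 2 were called, both lower, where 0.440% of all 12501 genes tested were called, 0.224% lower, and 5.00% had stress and naïve libraries that did not overlap. Within INPUT none of the 9 genes was called (limma), the count was also 0 with limma-voom, and 1, which was Rara, had an unadjusted p under 0.05, where 0.0442% of all genes were called, 5.03% had such an unadjusted p and 2.87% had groups that did not overlap. For the difference between both stress effects 1 gene was called, where 0.0225% of all genes were. The set was chosen on the stress differences of Rara, so nothing is read from these counts.

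Rara in IP was at 17.6 to 21.5 CPM in naïve mice and at 11.8 to 13.8 CPM in stressed mice. In INPUT it was at 14.9 to 24.3 CPM and at 26.9 to 31.2 CPM. The groups did not overlap in either fraction, and the order of the 4 groups by mean was stress INPUT (29.3 ± 1.95 CPM, SD, n = 4), naïve IP (19.5 ± 1.64 CPM), naïve INPUT (19.2 ± 4.01 CPM) and stress IP (12.8 ± 1.07 CPM), of which naïve IP and naïve INPUT differed by less than their SD. The log2 difference between stress and naïve was -0.61 ± 0.09 (SE) in IP, a 0.657-fold level, and 0.62 ± 0.12 in INPUT, a 1.54-fold level, and the gap between both effects was -1.23 ± 0.17. Over the other settings tried it ran from -0.62 to -0.57 in IP and from 0.60 to 0.64 in INPUT, and when single libraries were left out from -0.66 to -0.56 and from 0.51 to 0.74.

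Each group had 2 libraries with high Xist, the RNA made from the inactive X chromosome of females, and 2 with low Xist. In the libraries with high Xist its level was 496 to 665 CPM in IP and 122 to 167 CPM in INPUT. In IP the log2 difference of Rara was -0.54 in libraries with high and -0.67 in those with low Xist. In INPUT it was 0.60 and 0.64. Since the stress and naïve libraries of Rara did not overlap, the direction could not differ between these subsets.

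The summed levels of endothelial and neuronal markers were set beside the stress values of Rara and Rarg in IP. The summed level of the 5 endothelial markers was 9.27 to 12.8 CPM in naïve IP and 6.67 to 9.17 CPM in stress IP, without overlap, and 47.3 to 73.8 CPM in naïve INPUT and 40.3 to 61.7 CPM in stress INPUT. That of the 6 neuronal markers was 423 to 551 CPM in naïve IP and 334 to 492 CPM in stress IP, with overlap, and 9753 to 10194 CPM and 9619 to 11272 CPM in INPUT. No endothelial or neuronal marker was at 0 in all libraries of a group. In IP 2 of the 5 endothelial and all 6 neuronal markers passed the filter and none of these was called after stress (limma), with 1 of each list at an unadjusted p under 0.05. Their part in the values of Rara and Rarg was not tested.

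Rarg in IP was at 7.79 to 9.57 CPM in naïve and at 5.75 to 6.15 CPM in stressed mice, without overlap, with a log2 difference of -0.59 ± 0.11. In INPUT it was at 8.48 to 12.3 CPM in naïve and at 6.11 to 9.77 CPM in stressed mice, with overlap, and the log2 difference was -0.33 ± 0.16. Rarg therefore had lower means after stress in both fractions, while Rara had a lower one in IP and a higher one in INPUT. The number of genes of the set past the threshold in IP was 0 when naïve IP replicate 2 or 13 or stress IP replicate 4 or 6 was left out, 1 without naïve IP replicate 8 or stress IP replicate 5, and 2 without naïve IP replicate 11 or stress IP replicate 15. Rarg passed it in 2 of these 8 fits and in 7 of 11 other settings, and Rara in 4 and in 10.

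The other members had smaller differences against their spread. In IP the log2 difference was -0.11 ± 0.11 for Rarb, 0.17 ± 0.12 for Rxra, -0.08 ± 0.10 for Rxrb, 0.04 ± 0.09 for Rdh10 and 0.10 ± 0.09 for Aldh1a1. In INPUT it was -0.15 ± 0.12 for Rarb, 0.00 ± 0.06 for Rxra, 0.03 ± 0.07 for Rxrb, 0.08 ± 0.23 for Rxrg, 0.02 ± 0.12 for Rdh10 and -0.08 ± 0.08 for Aldh1a1. Stress and naïve libraries overlapped in each of these cases. Cyp26b1 had -0.60 ± 0.53 in IP, where it went to -1.10 or to -0.39 when single libraries were left out, and -0.26 ± 0.18 in INPUT. In IP its difference was 0.08 in libraries with high and -1.28 in those with low Xist, the latter including replicate 11 of naïve IP.

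**Figure D5:**
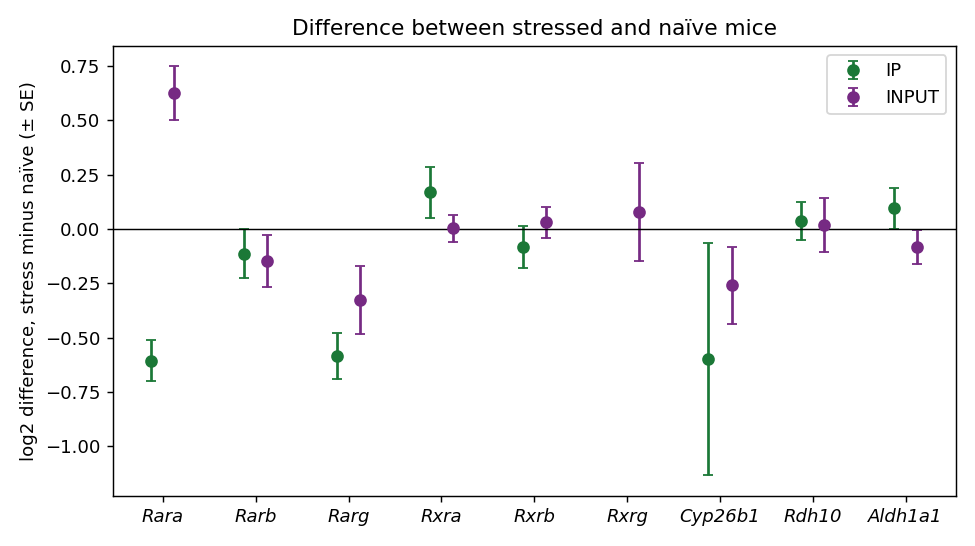
Log2 difference between stressed and naïve mice (vertical axis, on log2(CPM + 0.1), ± SE from limma, 4 against 4 libraries) in IP and in INPUT for the 9 genes. Rara lies at -0.61 in IP and at 0.62 in INPUT, and Rxrg has no IP point since its mean was under 1 CPM there.

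Of the companion genes none passed the threshold between stress and naïve in IP (31 tested), in INPUT (33 tested) or in the difference between both effects (33 tested) by limma, and the counts were also 0 with limma-voom. At an unadjusted p under 0.05 there was 1 gene in IP, Nrip1, and none in the other comparisons, where the shares of all genes were 8.27% in IP, 5.03% in INPUT and 4.71% for the difference. The median log2 difference of the companion genes was -0.03 in IP and -0.03 in INPUT, and that of all genes was 0.00 in both.

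The genes whose levels followed Rara most closely were found by Pearson correlation over the 16 libraries among 13340 other genes with a mean above 1 CPM, as a description, since the libraries share the contrast that chose Rara. The highest were Efnb1 (r = 0.880), which encodes ephrin-B1, Zbtb1 (0.880), Pcdh1 (0.871), Midn (0.871) and Irf2bpl (0.856). Efnb1 had group means of 12.7 ± 1.56 CPM in naïve IP, 9.87 ± 0.909 CPM in stress IP, 15.4 ± 2.20 CPM in naïve INPUT and 22.4 ± 1.24 CPM in stress INPUT (SD, n = 4). All 5 genes had their lowest group mean in stress IP and their highest in stress INPUT, as Rara did. The lowest correlations were those of Mettl25 (-0.857), H3f3a (-0.854), which encodes a histone H3.3, and Eif4ebp1 (-0.833), which encodes a translation repressor. Within the set r was 0.663 for Rxrb, 0.575 for Cyp26b1, 0.559 for Rarb, 0.480 for Rarg, 0.401 for Rxrg, -0.219 for Rxra, -0.607 for Rdh10 and -0.660 for Aldh1a1.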

How the data were processed

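RNA was measured in 16 libraries, 4 per group, and groups were taken from the labels. The authors aligned 69-base paired reads to mm10 with STAR, counted reads on RefSeq genes with HTSeq and used edgeR and limma (versions not given in the sources used here), per the submitters' processing notes and the methods. The deposited values are log2 CPM, 1 table per library, with a floor of -6.4 for genes without reads. They were turned back into CPM and reads, and 100% of values came out whole (tolerance 0.05).

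Tests used limma 3.58.1 (R 4.3.3; lmFit and eBayes with trend) with a pseudocount of 0.1 CPM before the log2. Genes entered a comparison when they averaged more than 1 CPM across its libraries, and p-values were Benjamini-Hochberg adjusted over all such genes, with a threshold of 0.05. This was tested on simulated data for stress IP against naïve IP only, and not for IP against INPUT. The 9 genes, the companion and marker lists and the tests were chosen with earlier results of these data known. Named companion genes were the 3 with the largest log2 difference in each direction of each list among those past the threshold in naïve and stressed mice, any past it after stress, and the 5 most and 3 least correlated with Rara. Some named genes are counted in their lists but not reported here. Bco1 and Drd1 appear under the older symbols Bcmo1 and Drd1a. Exon lengths, gene coordinates and transcript stretches came from GENCODE M21 on GRCm38, the same build as mm10. The labels put the experiment 4 weeks after tamoxifen and the methods 2 weeks. The alternatives were other pseudocounts, filters, scalings and models, Xist as a covariate and leaving out each library.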

Additional observations from a re-analysis of the deposited data

Results flagged for a closer look

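Rara had a stress effect that differed between IP and INPUT, by -1.23 ± 0.17 (SE) on the log2 scale, and the set was chosen on this difference. In 4 of 120 sets of 4 libraries checked over 30 genes, 1 library lay apart from the other 3, where chance gives about 1 in 20, or 6. Rarb was highest in naïve IP replicate 11, with 5.60 CPM against 5.04 to 5.11 CPM in the others. Rdh14 was lowest in naïve INPUT replicate 7, with 20.0 CPM against 24.2 to 24.6 CPM. Med1 was highest in stress IP replicate 6, with 79.2 CPM against 68.0 to 69.1 CPM. Pparg was lowest in naïve INPUT replicate 14, with 9.33 CPM against 10.8 to 11.0 CPM.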

How the results depend on the processing

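No paired analysis was possible because the library numbers 1 to 16 are all different and the labels do not state which IP and INPUT libraries share an animal. The number of the 9 genes called between stress IP and naïve IP was 2 and became 1 with no filter on low values, with limma-voom, with no variance trend, with all 16 libraries in 1 model and with Xist as a covariate, and ran from 0 to 2 when single libraries were left out. In INPUT it was 0 and became 1 with array weights. These counts hold Rara, on which the set was chosen. The companion counts between stress and naïve were 0 in all alternatives run. The direction against INPUT depended on the scale. After median ratio rescaling the log2 difference became 0.44 and 0.17 for Rarg in naïve and stressed mice, 0.52 for Rxra in naïve mice and 0.072 for Rxrg in stressed mice. After quantile normalization it became 0.082 and 0.15 for Rarb, 0.52 and 0.33 for Rarg and 0.70 and 0.90 for Rxrg in naïve and stressed mice, and 0.45 for Rxra in naïve mice. The log2 difference of Rxra in stressed mice ran from -0.013 (without stress IP replicate 4) to 0.11 (without stress IP replicate 15) when single libraries were left out. These shifts follow from the construction of the rescalings, which move the median of all genes from -0.64 to 0.01 or 0.02 in naïve mice. Depth limited Rxrg and Cyp26b1, and intervals cover the spread between libraries only.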
